A study of Mus musculus with 12 samples.

Results

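Txnip, its alpha-arrestin paralogues, the glucose-sensing transcription factors that act on it and the thioredoxin system it binds were followed in RNA-seq read counts from mouse mammary cancer tumourspheres. The set holds 8 of the 18278 genes in the count tables: Txnip, Arrdc4, Arrdc3, Mlxip, Mlx, Txn1, Txnrd1 and Txn2, each found by its Ensembl identifier. The genes were selected on measured values, namely their fold changes between parental and knockout-labelled libraries in these counts, so those differences are described here without a test. LM1 and LM9 are lines grown out of lung metastases of NOD/SCID mice. The mice carried tumours of HR1.PB, a mouse mammary line that carries the PIK3CA H1047R oncogene driven by the CAG promoter and that had been mutagenised with the piggyBac transposon. By label and by the study's methods, LM1 Nfib KO and LM9 Nfib KO are these lines after CRISPR-Cas9 targeting of Nfib, a transcription factor gene, each as a pool of single-cell clones. All 4 groups, with 3 libraries each, were grown without attachment for 6 days in serum-free medium with B27, EGF and basic FGF.

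TXNIP is an alpha-arrestin that binds the reduced active site of thioredoxin and promotes internalisation of glucose transporters. Its transcription is a readout of intracellular glucose: glucose 6-phosphate brings the basic helix-loop-helix factors MondoA (encoded by Mlxip) and ChREBP (encoded by Mlxipl), each paired with MLX, to carbohydrate response elements, which are paired E-box-like sites. TXNIP is known in tumour cells as a brake on glucose uptake and proliferation. MYC, which pairs with MAX, belongs to the same wider network as MondoA and MLX.

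Several features of the libraries bear on every value below. Total counts were 29249075 to 37162594 per library, and levels are given as CPM, read counts relative to library size, after trimmed-mean (TMM) scaling. Beside a CPM or a ratio ± is the SD over 3 libraries, and beside a log2 fold change it is the SE of the fit. Nfib mRNA was not lower in the knockout-labelled libraries: LM1 spheres had 218 ± 22.6 CPM (SD, n = 3) and their KO counterparts 235 ± 5.67, while LM9 spheres had 154 ± 48.8 and their KO counterparts 240 ± 11.2. The Nfib log2 fold change was 0.11 ± 0.16 (SE) in LM1 and 0.68 ± 0.17 in LM9, the latter 0.93 ± 0.07 without LM9 replicate 1, where LM9 was at 127 CPM. Counts over the gene do not show whether its sequence was edited, so this value does not bear out the labels. The study's methods state that clones were screened by immunoblotting before pooling, a check of protein that these counts do not cover. LM9 replicate 1 stood apart from its group and with LM1, which goes against its label. Across genes, the Pearson r of its log2 CPM was 0.9912 to 0.9918 against LM1 libraries, where LM1 libraries gave 0.9907 to 0.9914 among themselves, and 0.9630 to 0.9655 against the other LM9 libraries. Whether it is an LM1 library was not tested. LM9 values of the 8 genes are given with and without it, as are those of the other named genes that it moved most. The same r was 0.6851 to 0.7006 between parental and knockout-labelled libraries, and 0.9931 to 0.9940 between knockout-labelled libraries of either line. Summed levels of cell type markers moved with the label, but not every marker of a list moved the same way. The 7 of 8 epithelial markers analysed summed to 763 to 816 CPM in LM1 and 814 to 1480 in LM9. In the knockout-labelled libraries they summed to 7.1 to 7.88 CPM, with Cdh1 and Cldn4 at or under 3 counts in each. Krt14 alone among them went the other way, from 0.0584 to 6.79 CPM in LM1 and from 0.145 to 6.51 in LM9. It made up most of the sum left in the knockout-labelled libraries. The 3 of 6 endothelial markers analysed summed to 0.202 to 1.33 CPM in the parental and 350 to 359 in the knockout-labelled libraries. Cdh5 and Kdr were at or under 3 counts in every parental library. Pecam1 did not follow them, at 0.314 against 0.433 CPM in LM1 and 0.88 against 0.332 in LM9. The 7 of 8 fibroblast markers analysed summed to 174 to 311 CPM in the parental and 1309 to 1402 in the knockout-labelled libraries. Most of that rise was Col1a1, from 6.1 to 958 CPM in LM1 and from 3.25 to 899 in LM9. Col1a2 and Lum were at or under 3 counts in every parental library and averaged at most 0.76 CPM in the knockout-labelled groups. Dcn went the other way, from 90.7 to 11.5 CPM in LM1 and from 38.4 to 12.4 in LM9. The 2 of 6 leukocyte markers analysed summed to 450 to 554 CPM in the parental and 107 to 117 in the knockout-labelled libraries. They moved in opposite directions, Cd68 from 459 to 101 CPM in LM1 and from 523 to 98.7 in LM9. Csf1r was at or under 3 counts in every parental library and at 12.4 CPM in LM1 Nfib KO and 12.3 in LM9 Nfib KO. The libraries labelled knockout thus resembled each other across lines and neither parental line, and whether they hold the cells their labels name was not tested. Each difference below is one between libraries that carry these labels. The part of the marker shifts in the results was not tested, and in bulk RNA fewer cells of a type and less RNA per cell cannot be told apart. The labels do not say whether the 3 libraries of a group came from separate cultures, so p-values measure only the spread between these libraries.

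Promoter sequences are shown first, because the best-known inputs to Txnip act on its proximal promoter. In the RefSeq windows of the GRCm38.p6 assembly, which run from 250 bases before to 50 bases after each transcription start, all 8 genes matched; Arrdc3 and Txnrd1 have 3 annotated starts each and the others 1. The sequence of a carbohydrate response element was searched on both strands as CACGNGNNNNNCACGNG, a pair of E-box-like sites 5 bases apart. The 250 bases upstream of the Txnip start (chr3:96557707-96557956, plus strand), those upstream of the Arrdc4 start (chr7:68749239-68749488, minus strand) and those upstream of the Mlx start (chr11:101087040-101087289, plus strand) read as follows, 5′ to 3′. Capitals mark the paired site and CCAAT boxes in Txnip, the E-box CACGTG and CCAAT boxes in Arrdc4, and the E-box and the antioxidant-response-like sequence TGACNNNGC in Mlx.
Txnip: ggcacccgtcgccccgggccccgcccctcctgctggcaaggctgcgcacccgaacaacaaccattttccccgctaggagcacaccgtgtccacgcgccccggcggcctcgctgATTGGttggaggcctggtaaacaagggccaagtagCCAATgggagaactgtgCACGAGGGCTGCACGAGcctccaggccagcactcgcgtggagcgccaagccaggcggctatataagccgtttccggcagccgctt
Arrdc4: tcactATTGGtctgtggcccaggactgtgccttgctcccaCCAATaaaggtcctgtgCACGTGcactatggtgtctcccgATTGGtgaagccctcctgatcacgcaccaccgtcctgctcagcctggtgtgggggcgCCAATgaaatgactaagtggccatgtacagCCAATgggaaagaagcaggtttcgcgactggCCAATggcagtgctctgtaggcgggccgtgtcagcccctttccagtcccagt
Mlx: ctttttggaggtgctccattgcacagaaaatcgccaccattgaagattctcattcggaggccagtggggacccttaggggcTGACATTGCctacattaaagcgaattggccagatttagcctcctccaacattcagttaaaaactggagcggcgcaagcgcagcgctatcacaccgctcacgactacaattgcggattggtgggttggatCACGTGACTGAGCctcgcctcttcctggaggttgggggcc
The paired site lay at -85 to -69 in Txnip, where -1 is the base before the start, and no window of the other 7 genes held it. It occurred in 16 of all 32851 windows (0.0487%). A single CACGTG lay at -193 in Arrdc4 and at -40 in Mlx, and in 7.15% of all windows. In Mlx it overlapped an antioxidant-response-like match at -36, and further such matches lay at -169 and at 38 after the start. TGACNNNGC was present in 12.4% of windows, among them Arrdc4 at -28 and the second Txnrd1 start at -92. CCAAT, on either strand, was found in 37.4% of all windows, with 6 matches in Arrdc4, 2 in Txnip, at least 1 in Arrdc3, Mlxip, Mlx, Txnrd1 and Txn2, and none in Txn1. The palindrome bound by NFI factors, searched as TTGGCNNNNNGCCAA, was in none of the windows of the 8 genes and in 0.0365% of all windows. Its half-site TTGGC, whose reverse complement overlaps a CCAAT box preceded by G, was in at least 1 window of each of the 8 genes and in 46.7% of all windows.

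**Figure D1:**
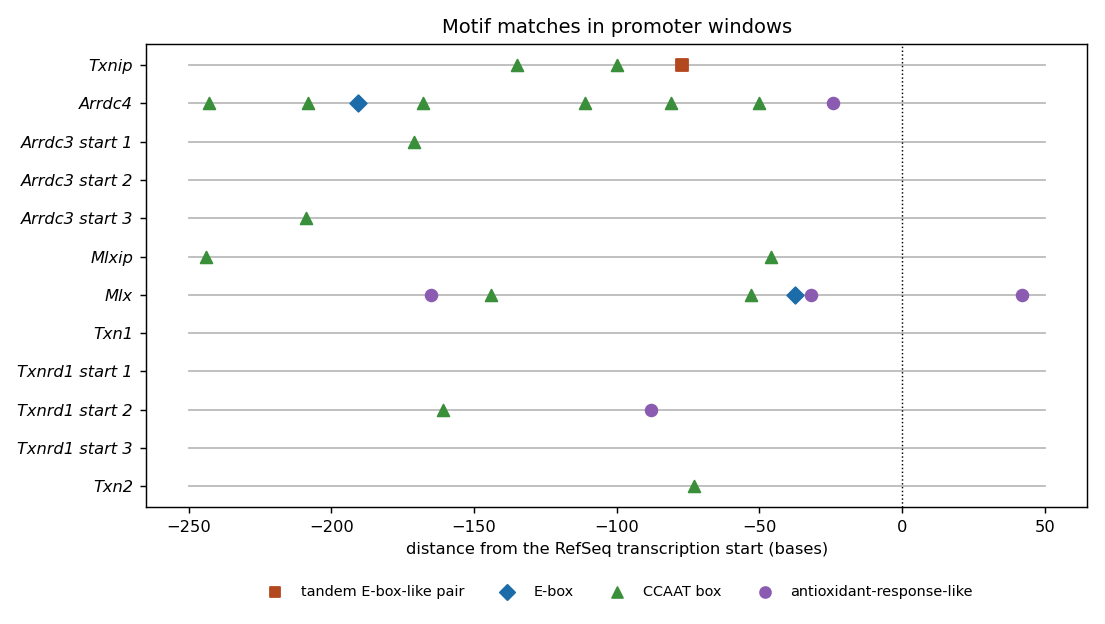
Motif matches in the promoter windows of the 8 genes, by distance in bases from each RefSeq transcription start (dotted line), with 1 row per annotated start. The paired E-box-like site (square) is in Txnip alone among the rows, and Arrdc4 carries 6 CCAAT boxes (triangles) and 1 E-box (diamond).

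Txnip (ENSMUSG00000038393, chr3:96557957-96561883, plus strand of mm10) was among the most abundant transcripts of the parental spheres and a middling one in the knockout-labelled spheres. It stood at 5355, 5610 and 5388 CPM in LM1 and at 34.6, 33 and 32.4 CPM in LM1 Nfib KO. In LM9 it stood at 5454, 5144 and 5203 CPM, and in LM9 Nfib KO at 35.4, 34.3 and 31.1 CPM. All 6 parental libraries were far above all 6 knockout-labelled ones. LM9 replicate 1 lay within the LM1 range and above the other LM9 libraries, by little beside the gap to the knockout-labelled libraries. The means were 5451 ± 139 against 33.3 ± 1.16 CPM (SD, n = 3) in LM1 and 5267 ± 165 against 33.6 ± 2.24 in LM9. The log2 fold change was -7.35 ± 0.06 (SE), 163-fold lower, in LM1 and -7.29 ± 0.06, 157-fold lower, in LM9. Without LM9 replicate 1 the LM9 value was -7.26 ± 0.04. Per kilobase of exon union, Txnip ranked 18 to 19 of 18268 genes in LM1, 19 to 34 in LM9 and 5099 to 5618 in the knockout-labelled libraries.

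A lncRNA gene on the opposite strand overlaps Txnip. This gene, Gm15441, was at 4.94 ± 0.553 CPM in LM1 and 0.173 ± 0.0428 in LM1 Nfib KO, which is -4.76 ± 0.29 in log2 units, and at 4.09 ± 0.329 and 0.226 ± 0.107 in the LM9 pair. The kit marks strand, but the sources used here do not state whether counting used it, and Gm15441 reads were few beside those of Txnip.

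**Figure D2:**
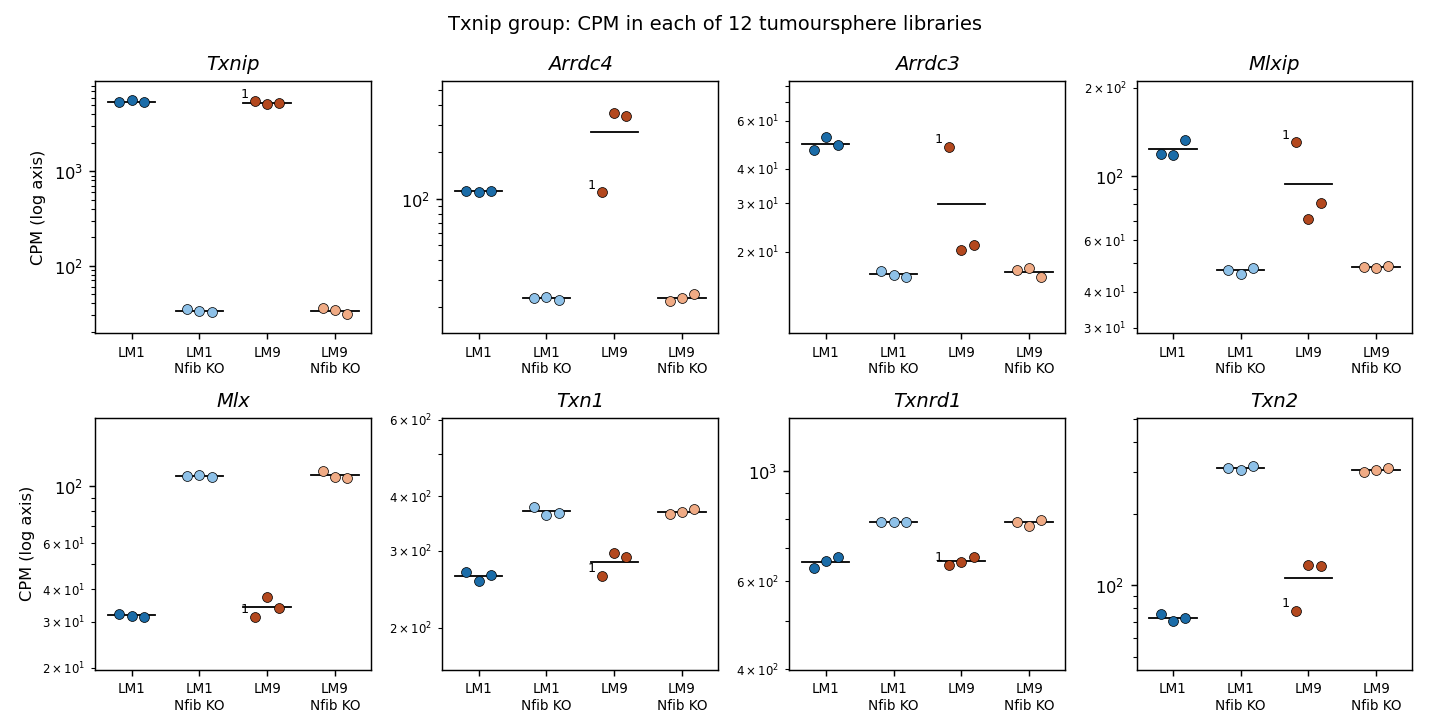
CPM of each of the 8 genes in the 12 libraries (points, log axes) by group, with the group mean as a line and LM9 replicate 1 marked 1. Txnip, Arrdc4, Arrdc3 and Mlxip are lower, and Mlx, Txn1, Txnrd1 and Txn2 higher, in every knockout-labelled library than in any parental library of the same line.

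All 8 genes separated the parental from the knockout-labelled libraries of the same line without overlap, 4 higher and 4 lower in each line, and did so again without LM9 replicate 1. Nothing is read from that count, because these contrasts selected the genes and most genes moved: at a limma-voom adjusted p under 0.05, 81.2% of the 18176 genes tested were called in LM1 and 82.3% in LM9, and 89.1% and 80.5% did not overlap between the groups. Against this background the log2 fold changes of the 8 genes spanned -7.35 to 2.09 for LM1 and -7.29 to 1.68 for LM9. The median over all genes was 0.08 in LM1 and 0.13 in LM9.

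Arrdc4, the closest relative of Txnip and likewise a MondoA target that lowers glucose uptake, was also lower in the knockout-labelled libraries. Its levels were 112, 111 and 112 CPM in LM1 and 22.7, 23.2 and 22.2 in LM1 Nfib KO. They were 110, 358 and 339 CPM in LM9 and 21.7, 22.7 and 24.1 in LM9 Nfib KO. LM9 replicate 1 sat at the LM1 level and the other LM9 libraries well above it. The log2 fold change was -2.29 ± 0.39 (SE) in LM1 and -3.37 ± 0.38 in LM9. Without LM9 replicate 1 it was -2.29 ± 0.04 in LM1 and -3.93 ± 0.04 in LM9. All groups share 1 estimate of the spread for each gene, so that library also widened the SE of the LM1 contrast, whose own libraries were close together. Per kilobase of exon, Txnip exceeded Arrdc4 by 63.2 ± 2.1-fold (SD, n = 3) in LM1, by 34.2 ± 26-fold in LM9, by 19.2-fold in LM9 without replicate 1 and by 1.9 ± 0.0685-fold in LM1 Nfib KO.

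Arrdc3 encodes an alpha-arrestin that recruits NEDD4-family ubiquitin ligases to beta-adrenergic receptors and to integrin beta 4. It was at 46.7, 52.2 and 49 CPM in LM1 and at 17, 16.4 and 16.2 CPM in LM1 Nfib KO. In LM9 it was at 48.2, 20.3 and 21.1 CPM, and in LM9 Nfib KO at 17.1, 17.4 and 16.2 CPM. LM9 replicate 1 again sat with LM1, and the other LM9 libraries were little above the knockout-labelled ones. Accordingly the log2 fold change was -1.58 ± 0.25 in LM1 and -0.72 ± 0.26 in LM9, and the latter became -0.29 ± 0.07 without LM9 replicate 1, against -1.57 ± 0.05 for LM1 in that fit. With total-count scaling the LM9 value was -0.35.

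**Figure D3:**
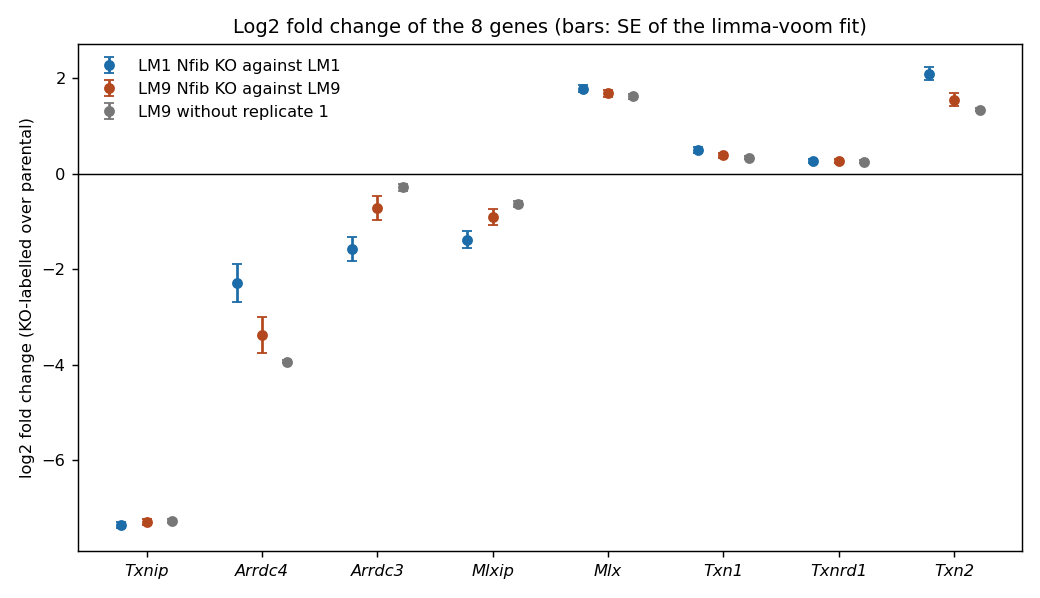
Log2 fold change of the knockout-labelled over the parental libraries for each of the 8 genes, with the SE of the limma-voom fit as bars, in LM1, in LM9 and in LM9 without replicate 1. Txnip lies near -7.3 in all 3, whereas the LM9 values of Arrdc4, Arrdc3, Mlxip and Txn2 move when LM9 replicate 1 is left out. The 8 genes were selected on these fold changes, which are therefore shown without a test.

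The glucose sensor and its partner differed in opposite directions. Mlxip, which encodes MondoA, was at 119, 118 and 132 CPM in LM1 and at 47.6, 46.1 and 48.3 CPM in LM1 Nfib KO. In LM9 it was at 130, 70.9 and 80.4 CPM, and in LM9 Nfib KO at 48.7, 48.3 and 48.8 CPM. Every parental library was above every knockout-labelled one, with LM9 replicate 1 at the LM1 level. The log2 fold changes were -1.38 ± 0.17 (SE) in LM1 and -0.90 ± 0.17 in LM9, or -0.63 ± 0.06 without LM9 replicate 1 and -0.55 with total-count scaling. Gm42907 and Gm43813, on the same strand within Mlxip, had group means of at most 1.35 CPM.

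Mlx, the obligate partner of MondoA and ChREBP, was at 32.2, 31.7 and 31.4 CPM in LM1 and at 109, 110 and 108 CPM in LM1 Nfib KO. It was at 31.4, 37.4 and 34 CPM in LM9 and at 114, 108 and 107 CPM in LM9 Nfib KO. The knockout-labelled libraries were thus the higher ones in both lines. The log2 fold changes were 1.78 ± 0.07 (SE) in LM1 and 1.68 ± 0.07 in LM9, and 1.62 ± 0.05 without LM9 replicate 1. Psmc3ip, a recombination factor gene on the opposite strand that overlaps Mlx, went the same way, from 3.69 ± 0.201 to 15.4 ± 0.326 CPM in LM1, and whether reads passed from one gene to the other was not tested. Per kilobase of exon, Mlx stood at 1.08 ± 0.0765 times Mlxip (SD, n = 3) in LM1 and at 9.61 ± 0.31 times Mlxip in LM1 Nfib KO. In LM9 the ratio ranged from 1 in replicate 1 to 2.2, and in LM9 Nfib KO it was 9.4 ± 0.304.

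Around this pair, 7 of the 10 other genes of the MYC, MAX and MLX network that were tested changed in LM1, 2 upwards and 5 downwards, and 7 in LM9, 1 upwards and 6 downwards. With all libraries these are 70% of the list in each line, below the 81.2% and 82.3% of all genes. Over all genes tested 43.1% rose and 38.1% fell in LM1, and 44.3% rose and 38% fell in LM9. The list's median log2 fold change was -1.02 in LM1 and -1.55 in LM9. The 5 genes that fell in both lines were Mnt, Mxd1, Mxd3, Mxd4 and Mxi1, which encode repressive MAX or MLX partners. Mga, a further MAX partner that can repress, had a log2 fold change of 0.16 in LM1 (limma-voom adjusted p = 0.462) and rose by 0.84 in LM9 (limma-voom adjusted p = 0.00204). Mxi1 fell from 119 ± 1.54 to 20.1 ± 0.704 CPM in LM1 and from 119 ± 2.37 to 20.2 ± 0.493 CPM in LM9 (-2.56 ± 0.05 (SE) in log2 units for each, limma-voom adjusted p = 1.02e-11 in each). Mxd1 fell by 2.42 on the log2 scale in LM1 and fell by 2.31 in LM9 (limma-voom adjusted p = 5.78e-10 and 8.31e-10). No listed gene of this network rose in both lines with all libraries. Without LM9 replicate 1, 3 rose and 7 fell in LM1, and 2 rose and 7 fell in LM9, which are 100% and 90% of the list. In that fit 47.7% of all genes rose and 41.2% fell in LM9, so the list's place below all genes depends on that library.

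Mlxipl, the gene of ChREBP, was scarce everywhere. It rose from 0.429 ± 0.132 to 3.24 ± 0.0139 CPM in LM1 (2.91 ± 0.62 in log2 units, limma-voom adjusted p = 0.00108). LM9 replicate 1 held 0.506 CPM and the other LM9 libraries 2.52 and 3.47, against 3.08 ± 0.353 in LM9 Nfib KO (0.95 ± 0.48, adjusted p = 0.0875 by limma-voom). That LM9 difference passed the threshold with total-count scaling (adjusted p = 0.0225) and without LM9 replicate 2 (0.0117) or 3 (0.0488), and was 0.05 without replicate 1 (0.77).

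Myc fell in LM9, from 277 ± 140 to 76 ± 2.24 CPM (-1.69 ± 0.34 in log2 units, limma-voom adjusted p = 0.000649), and fell by 2.23 on the log2 scale without LM9 replicate 1. In LM1 it was at 111 ± 7.08 CPM against 80.4 ± 2.15 in the KO-labelled spheres, and the difference of -0.46 ± 0.34 in log2 units missed the threshold with all libraries (adjusted p = 0.229 by limma-voom). It passed without LM9 replicate 1 (adjusted p = 3.75e-08) and in a fit of only the groups compared (8.33e-07).

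The 3 thioredoxin-system genes were higher in the knockout-labelled libraries, opposite to Txnip. Txn1, the cytosolic thioredoxin, was at 268, 256 and 264 CPM in LM1 and at 379, 363 and 367 CPM in LM1 Nfib KO. It was at 263, 296 and 291 CPM in LM9 and at 365, 368 and 375 CPM in LM9 Nfib KO. The groups did not overlap, but the difference was small beside that of Txnip: the log2 fold change was 0.49 ± 0.06 (SE) in LM1 and 0.38 ± 0.06 in LM9, or 0.33 ± 0.03 without LM9 replicate 1 and 0.74 with total-count scaling. Per kilobase of exon, Txnip was at 6.99 ± 0.343 times Txn1 (SD, n = 3) in LM1 and 6.28 ± 0.611 times in LM9, or 5.93 times without LM9 replicate 1. In the knockout-labelled libraries the order was turned, with Txn1 at 33 ± 0.618 times Txnip in LM1 Nfib KO and at 32.8 ± 2.71 times in LM9 Nfib KO.

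Txnrd1, the cytosolic reductase that regenerates thioredoxin with NADPH, differed least. It was at 638, 658 and 670 CPM in LM1 and at 788, 788 and 789 CPM in LM1 Nfib KO. It was at 648, 657 and 670 CPM in LM9 and at 789, 776 and 798 CPM in LM9 Nfib KO. All knockout-labelled libraries were above all parental ones, and the log2 fold change was 0.27 ± 0.04 (SE) in LM1 and 0.26 ± 0.04 in LM9, with or without LM9 replicate 1 to within 0.01. Total-count scaling made these 0.49 and 0.61. Txnrd1 stood at 0.37 ± 0.0154 times Txn1 per kilobase (SD, n = 3) in LM1 and at 0.316 ± 0.00699 times in LM1 Nfib KO.

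Txn2, the mitochondrial thioredoxin, differed most of the 3. It was at 76.1, 70.7 and 72.6 CPM in LM1 and at 311, 307 and 317 CPM in LM1 Nfib KO. It was at 78.4, 122 and 121 CPM in LM9 and at 299, 307 and 313 CPM in LM9 Nfib KO. Every LM9 library exceeded every LM1 library, with replicate 1 just above LM1. The log2 fold change was 2.09 ± 0.14 (SE) in LM1 and 1.55 ± 0.13 in LM9, or 1.34 ± 0.04 without LM9 replicate 1.

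**Figure D4:**
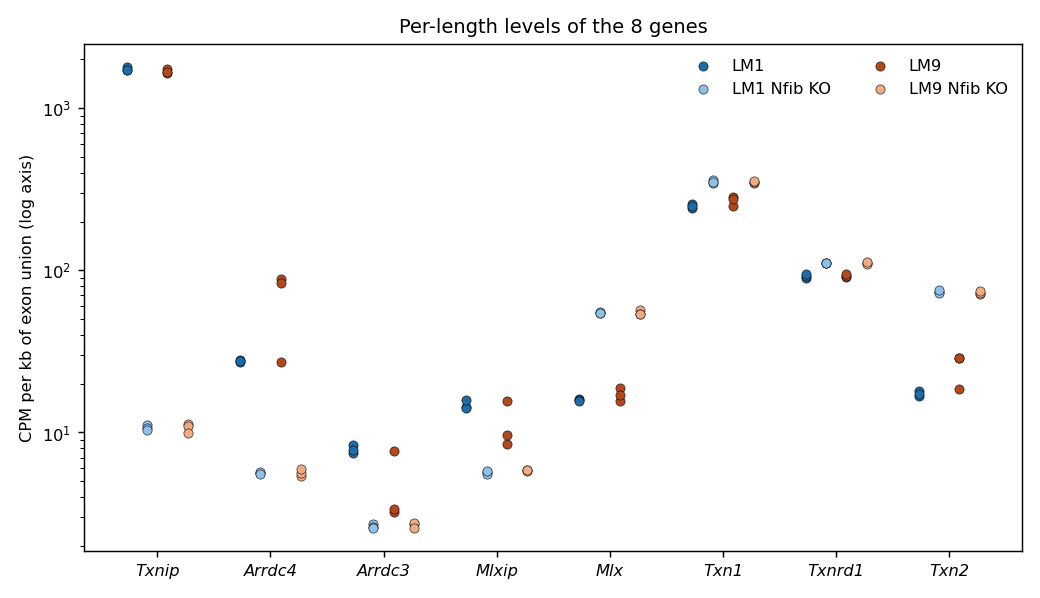
Levels of the 8 genes in CPM per kilobase of exon union (log axis), 1 point per library, coloured by group. In the parental libraries Txnip lies above Txn1, and in the knockout-labelled libraries Txn1 lies above Txnip and Mlx above Mlxip.

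Of 24 listed genes of the wider thioredoxin and glutaredoxin systems, all tested, 13 rose and 9 fell in LM1, and 13 rose and 10 fell in LM9. Those called were 91.7% and 95.8% of the list, beside 81.2% and 82.3% of all genes, and the medians were 0.38 and 0.36 on the log2 scale, beside 0.08 and 0.13 for all genes. Srxn1, which repairs over-oxidised peroxiredoxins, rose from 86.4 ± 1.41 to 580 ± 1.58 CPM in LM1 (2.75 ± 0.20 in log2 units, limma-voom adjusted p = 1.10e-07) and by 3.40 ± 0.20 in LM9 (limma-voom adjusted p = 2.36e-08), or by 3.76 without LM9 replicate 1. Prdx1, a cytosolic peroxiredoxin that thioredoxin reduces, rose from 555 ± 16.6 to 2171 ± 17.2 CPM in LM1 and from 598 ± 34.7 to 2270 ± 61.3 CPM in LM9 (limma-voom adjusted p = 5.80e-11 and 7.03e-11). Msrb3, a methionine sulfoxide reductase, rose by 1.97 ± 0.32 in LM1 and by 3.53 ± 0.43 in LM9 on the log2 scale, and by 4.47 without LM9 replicate 1. Among the 9 genes that fell in both lines was Map3k5, the gene of ASK1, a stress kinase held inactive by reduced thioredoxin. It fell from 57.7 ± 2.04 to 0.164 ± 0.0108 CPM in LM1, or 6 to 7 counts per knockout-labelled library, and from 46.6 ± 8.57 to 0.137 ± 0.11 CPM in LM9. Glrx, cytosolic glutaredoxin, fell by 3.78 on the log2 scale in LM1 and fell by 3.49 in LM9. Txnrd2, the mitochondrial partner of Txn2, fell from 8.5 ± 1.12 to 4.35 ± 0.32 CPM in LM1 (-0.95 ± 0.13 in log2 units, limma-voom adjusted p = 4.15e-05) and fell by 0.89 on the log2 scale in LM9 (5.88e-05), while Txn2 itself was higher.

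Of 14 tested genes of glucose entry and the first hexose phosphates, 7 rose and 5 fell in each line, the same 12 genes with the same sign. This is 85.7% of the list in each line, near the 81.2% and 82.3% of all genes, of which 43.1% rose and 38.1% fell in LM1. The medians were 0.58 in LM1 and 0.44 in LM9, also with the 3 genes that were at or under 3 counts in a whole group set to their bounds. Slc2a1, the widespread glucose transporter GLUT1, fell from 230 ± 10.1 to 89.1 ± 2.17 CPM in LM1 (-1.37 ± 0.19 in log2 units, limma-voom adjusted p = 3.49e-05) and from 360 ± 112 to 87.6 ± 3.44 CPM in LM9 (-1.98 ± 0.19, limma-voom adjusted p = 1.33e-06), or -2.27 without LM9 replicate 1. Gpi1, which interconverts glucose 6-phosphate and fructose 6-phosphate, fell by 1.66 in LM1 and fell by 2.08 in LM9 on the log2 scale, the latter being -2.25 without LM9 replicate 1. Hk2, the inducible hexokinase, fell by 1.66 on that scale in LM1 (limma-voom adjusted p = 0.000234) and fell by 0.77 in LM9 (limma-voom adjusted p = 0.0291). The LM9 fall of Hk2 no longer passed with total-count scaling (adjusted p = 0.266), in a fit of LM9 and LM9 Nfib KO alone (0.111) or without any 1 of the LM9 Nfib KO libraries (0.0601 to 0.069). Without LM9 replicate 1 the fall was smaller, -0.29, and passed (adjusted p = 1.12e-05). The 2 largest rises of the list started near nothing. Slc2a13, a proton-coupled myo-inositol carrier, had at most 3 counts in any LM1 library and 0 in LM9, against 10.8 ± 0.348 CPM in LM1 Nfib KO and 11.7 ± 0.773 in LM9 Nfib KO. This makes Slc2a13 at least 99.8-fold higher in the first and at least 97-fold higher in the second, computed against 3 counts per library. Slc2a10, encoding GLUT10, had at most 6 counts in LM1 and 7 in LM9, the 7 being in replicate 1 and the other LM9 libraries at 0, and reached 12.7 ± 0.526 and 13 ± 0.406 CPM in the knockout-labelled groups (limma-voom adjusted p = 2.06e-06 and 1.46e-06).

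Of 11 tested genes that ChREBP and MondoA are known to activate outside the arrestins, 5 rose and 6 fell in LM1, and 4 rose and 5 fell in LM9. Over all genes 43.1% rose and 38.1% fell in LM1, and 44.3% rose and 38% fell in LM9. The list's medians were -0.40 and -0.21. Khk, ketohexokinase, fell from 11.1 ± 1.51 to 0.285 ± 0.0313 CPM in LM1 and from 13.5 ± 2.67 to 0.295 ± 0.0662 CPM in LM9 (log2 fold changes -5.21 ± 0.32 and -5.45 ± 0.31, the latter -5.62 without LM9 replicate 1). Elovl6, a fatty acid elongase, fell by 2.41 in LM1 and fell by 1.30 in LM9 on the log2 scale, the latter at a limma-voom adjusted p of 0.00591, which total-count scaling moved to 0.0521. LM9 replicate 1 held 142 CPM of Elovl6 and the other LM9 libraries 43.1 and 43.8, and without it the LM9 value was -0.72. Acly, ATP citrate lyase, rose from 118 ± 1.01 to 298 ± 1.31 CPM in LM1 and from 116 ± 4.05 to 299 ± 2.05 CPM in LM9 (log2 fold changes 1.34 ± 0.05 and 1.37 ± 0.05). Gpd1, glycerol 3-phosphate dehydrogenase, rose from 0.195 ± 0.204 to 4.7 ± 0.131 CPM in LM1 (limma-voom adjusted p = 1.18e-06) and from 0.085 ± 0.0479 to 4.92 ± 0.347 CPM in LM9 (9.29e-07), where LM9 without replicate 1 was at 0.06 CPM. By promoter sequence rather than by function, 15 genes held the paired site found in Txnip. Of the 8 others that were tested, 2 rose and 5 fell in LM1, and 1 rose and 4 fell in LM9, with log2 fold changes from -1.11 to 0.58 in LM1.

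Among 18 tested partners and relatives of the alpha-arrestins, 8 rose and 8 fell in LM1, and 9 rose and 7 fell in LM9. This is 88.9% of the list in each line, near the 81.2% and 82.3% of all genes, and the medians of 0.16 and 0.17 were near the 0.08 and 0.13 of all genes. Itgb4, integrin beta 4, a cargo of Arrdc3 that marks basal epithelium, fell from 45.9 ± 1.59 to 0.749 ± 0.127 CPM in LM1 and from 55.3 ± 7.56 to 0.677 ± 0.027 CPM in LM9. Arrdc2, a further alpha-arrestin, fell by 3.23 ± 0.29 in LM1 and fell by 3.97 ± 0.29 in LM9 on the log2 scale (limma-voom adjusted p = 8.47e-07 and 1.43e-07), in the direction of its paralogues, the LM9 value being -4.27 without replicate 1. Prkag2 and Prkab2 encode subunits of AMP-activated kinase, which phosphorylates TXNIP for degradation. Prkag2 rose from 7.15 ± 0.308 to 63.7 ± 2.62 CPM in LM1 and from 6.63 ± 0.439 to 64.8 ± 1.8 CPM in LM9. Prkab2 rose by 0.75 ± 0.16 in LM1 and 1.52 ± 0.18 in LM9 on the log2 scale, the latter 1.84 without LM9 replicate 1. Itch, the ubiquitin ligase of TXNIP, fell in LM1 by 0.69 on the log2 scale (limma-voom adjusted p = 0.00246). In LM9 its log2 fold change was -0.02 ± 0.17 (adjusted p = 0.926 by limma-voom), and without LM9 replicate 1 it rose by 0.26 (adjusted p = 0.000269).

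**Figure D5:**
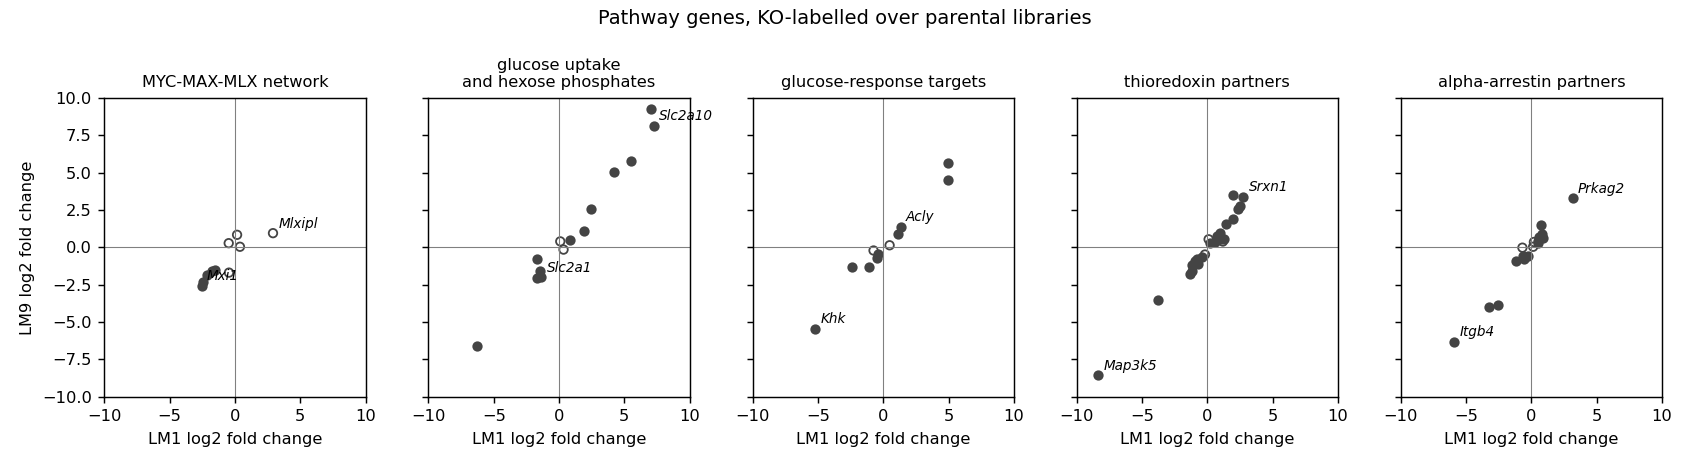
Log2 fold change in LM9 (vertical) against that in LM1 (horizontal) for the tested genes of the 5 pathway lists, 1 panel per list. Filled points were called in both lines and open points were not; no gene called in both lines lies in an opposite-sign quadrant, and every list apart from the MYC-MAX-MLX network has filled points in both same-sign quadrants.

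Between the parental lines, 0 of the 8 genes and 1 gene in all (0.0055%) were called by limma-voom. The libraries of the lines did not overlap for Txn2 and overlapped for the other 7 genes, where 17% of all genes tested did not overlap. Without LM9 replicate 1, 7 genes, Txn2 among them, did not overlap, 3 higher in LM1 and 4 higher in LM9, beside 72.9% of all 18246 genes, and 65.7% of all genes were called in that fit. Arrdc4 was then 3.12-fold lower in LM1 than in LM9, Txn2 1.66-fold lower and Arrdc3 2.39-fold higher, while Txnip differed by 1.05-fold. None of the 77 listed pathway genes differed between LM1 and LM9 by limma-voom, with 46 at an unadjusted p under 0.05, beside 8661 of all 18176 genes. The edgeR quasi-likelihood test called 0 listed genes (0.0055% of all genes), DESeq2 36 (33.9% of all genes) and limma-voom without LM9 replicate 1 52 (65.7% of all genes). With total-count scaling limma-voom called 28.8% of all genes, and with only genes of at least 5 CPM it called 39.4%, the listed genes then numbering 29 and 28.

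The knockout-labelled libraries of LM1 and those of LM9 could not be separated. All 8 genes overlapped between them, where 12.6% of all genes did not, and their log2 differences lay from -0.04 to 0.03. Of all genes, 0% were called and 178 of 18176 were under an unadjusted p of 0.05. LM9 replicate 1 widened the SE of this contrast too, for Arrdc4 to 0.42 against 0.05 without it, so few calls with all libraries say little. None of the 77 listed genes was called by limma-voom, edgeR or DESeq2, and 0 had an unadjusted p under 0.05. Without LM9 replicate 1, limma-voom also called 0 of the 77.

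The difference between the LM1 and LM9 contrasts is described without a test for the 8 genes, because the fold changes it compares selected them. The LM1 log2 fold change minus that of LM9 was -0.06 ± 0.09 (SE) for Txnip, 1.08 ± 0.54 for Arrdc4, -0.86 ± 0.36 for Arrdc3, -0.47 ± 0.24 for Mlxip and 0.54 ± 0.19 for Txn2. For Mlx, Txn1 and Txnrd1 it was 0.10 ± 0.09, 0.11 ± 0.08 and 0.01 ± 0.06. Over all genes 0% were called by limma-voom, with 4495 under an unadjusted p of 0.05. Of the listed genes 0 were called by limma-voom, edgeR or DESeq2, with 22 under an unadjusted p of 0.05. Without LM9 replicate 1, 57.2% of all genes and 45 of the 77 listed genes were called. The difference was then -0.09 ± 0.06 for Txnip, 1.64 ± 0.06 for Arrdc4 and -1.29 ± 0.09 for Arrdc3, again without a test. In that fit the LM9 contrast called 47.7% of genes higher and 41.2% lower, and of the listed genes 36 were higher and 35 lower.

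Many genes followed Txnip across the 12 libraries, which fall into parental and knockout-labelled blocks. Of 10279 genes at a mean of at least 10 CPM, 1100 had a Pearson r over 0.99 with Txnip in log2 CPM, a description over libraries that share their block. The 5 highest were Mxi1, Lcn2, Trerf1, Gpnmb and App, with r from 0.99979 to 0.99989. Lcn2, encoding the siderophore-binding protein lipocalin 2, went from 4420 ± 91 to 1.93 ± 0.299 CPM in LM1. Gpnmb, encoding a transmembrane glycoprotein, went from 2417 ± 12.2 to 8.4 ± 0.484 CPM, and App, the amyloid precursor gene, from 1206 ± 5.15 to 259 ± 3.25. Trerf1, a transcriptional regulator gene, was at 49.5 ± 4.29 CPM in LM1 and had 0 counts in all 6 knockout-labelled libraries, at least 625-fold lower computed against 3 counts per library. Among the 8 genes, r with Txnip was 0.929 for Arrdc4, 0.811 for Arrdc3 and 0.919 for Mlxip, and -0.997 for Mlx, -0.990 for Txnrd1 and -0.969 for both thioredoxins.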

How the data were processed

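Strand-marked mRNA libraries were sequenced from tumourspheres of 4 groups, 3 libraries each. Per the labels and the study's methods, the authors aligned reads to mm10 with STAR and deposited raw counts of reads over the exon union of each gene, made with QuasR. Tool versions, the annotation release and use of strand in counting are not given in the sources used here. In the deposited counts every gene reached at least 8 counts in 3 libraries. Groups came from the sample titles. Symbols, positions and exon lengths were taken from GENCODE M21 (18268 of 18278 identifiers matched), promoters from RefSeq.

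Genes passing filterByExpr (18176) were fitted with limma-voom 3.58.1 on TMM factors (edgeR 4.0.16, R 4.3.3), with 1 mean per group over 12 libraries, two-sided moderated tests and Benjamini-Hochberg adjustment within each contrast. A call is an adjusted p under 0.05. The fitting script was tested on simulated data. Alternatives were median-ratio and total-count scaling, edgeR's quasi-likelihood test, DESeq2 1.42.0, no filter, a filter of at least 5 CPM, a replicate block, fits of only the groups compared and leaving out each library. Counts of each pair of libraries differed by more than sampling noise (lowest chi-square per gene 1.42).

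The 8 genes and the lists were chosen with earlier results of these data known. Named besides the 8 were, in each list, up to 2 largest rises and 2 largest falls called in both lines at a mean of at least 1 CPM; Mlxipl, Myc, Slc2a1, Hk2, Txnrd2, Prdx1 and Itch; the 5 genes most correlated with Txnip; and Nfib. Sentences on other genes name those counted in a list, markers, overlapping genes or genes at 0.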

Additional observations from a re-analysis of the deposited data

How the results depend on the processing

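The 8 genes kept their direction in both lines under all alternatives run. Total-count scaling, which moved the median of all genes from 0.08 to 0.31 in LM1 and from 0.13 to 0.49 in LM9, gave Txnip as -7.13 in LM1 and -6.94 in LM9, Txn1 as 0.72 and 0.74, Txnrd1 as 0.49 and 0.61, Arrdc3 as -1.35 and -0.35, and Mlxip as -1.15 and -0.55. Leaving out single libraries gave Txnip -7.38 to -7.32 in LM1 and -7.33 to -7.24 in LM9.

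With total-count scaling 3 MYC-MAX-MLX genes rose and 3 glucose-response targets fell in LM9, and 29 listed genes differed between LM1 and LM9. With at least 5 CPM, 1 MYC-MAX-MLX gene rose in LM1, 3 glucose-response targets rose in LM1 and 2 in LM9, fewer genes being tested, and 28 listed genes differed between LM1 and LM9. DESeq2 gave 36 for the last. Leaving out single libraries gave 1 to 2 rising MYC-MAX-MLX genes in LM9 (2 without any 1 of the LM9 libraries), 0 to 52 listed genes between the parental lines and 0 to 45 between the contrasts, the highest values without LM9 replicate 1. Itch in LM9 ranged from -0.16 to 0.26, the latter without LM9 replicate 1. Except where a smaller gene set or library accounts for it by construction, the cause was not tested. Over all alternatives 646 of 659 list counts were within 1.5 times the value reported.

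With the replicate block, Txnip was -7.35 in LM1 and -7.29 in LM9, no list count moved by over 1.5 times and no call of a named gene changed. The numbers did not pair the libraries, with correlations of deviations from -0.050 to 0.026.

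With 3 libraries a group, LM9 replicate 1, which stands apart, widens the spread in LM9 and, through the estimate that all groups share, the SE of the LM1 contrasts (for Arrdc4 in LM1 0.39 with it and 0.04 without), and groups at or under 3 counts per library give bounds only.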
